A study of Mus musculus with 9 samples.

Results

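Lpo, Ccn3, Nxpe4, Nxpe2 and Cma1 are 5 mouse genes read far more often in libraries of colon cells than of small intestinal cells. They are 5 of the 78239 genes in the deposited count table. Lpo, Ccn3, Nxpe4 and Cma1 were selected on their counts, from the genes with the greatest colon over small intestine differences in this table, and Nxpe2 was added as the relative of Nxpe4. That difference chose them, so it is described here without a test. The cells came from Lgr5-2A-eGFP mice at 8 weeks of age, an allele in which a 2A peptide joins eGFP to the stem cell receptor Lgr5. All groups carry this allele, and no treatment is named. The groups are GFP-high colon, GFP-negative colon and small intestine, with 3 libraries each. At least 30000 cells were collected per colon fraction and at least 50000 from small intestine. The labels do not give a GFP fraction for small intestine, so tissue and fraction cannot be told apart between them and either colon group. The labels name no sort criterion other than GFP, and they do not say that replicates came from separate animals, so the spread behind each p-value is that between these samples and may be technical.

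The products of the 5 genes have different roles. Lpo encodes lactoperoxidase, a secreted haem peroxidase of milk, saliva and airway mucus that uses hydrogen peroxide to turn thiocyanate into an antimicrobial oxidant. Ccn3, also known as Nov, encodes a secreted protein of the CCN family, whose members sit in the extracellular matrix and bind integrins, and CCN3 has also been described as a partner of Notch1, connexin 43 and fibulin 1. Nxpe4 and Nxpe2 belong to a family named for its neurexophilin and PC-esterase domains. A human member of that family, NXPE1, modifies sialic acids of colonic mucus. Cma1 encodes a chymase, a serine protease stored in the granules of connective tissue mast cells. Human chymase can cut angiotensin I to angiotensin II, and the activity of the mouse enzyme was not measured here.

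For 4 of the 5 genes a start was found in the RefSeq promoter table (GRCm38.p6), and Ccn3 was not among its entries. The bases around these starts are shown because the 4 genes share a colon-high level, and so that their letters can be compared. Each run gives 250 bases before and 50 bases after the RefSeq start, 5′ to 3′ on the gene's own strand, and capitals mark a match to 1 of 5 motifs searched on both strands.
Lpo, chr11:87826065-87826364, minus strand: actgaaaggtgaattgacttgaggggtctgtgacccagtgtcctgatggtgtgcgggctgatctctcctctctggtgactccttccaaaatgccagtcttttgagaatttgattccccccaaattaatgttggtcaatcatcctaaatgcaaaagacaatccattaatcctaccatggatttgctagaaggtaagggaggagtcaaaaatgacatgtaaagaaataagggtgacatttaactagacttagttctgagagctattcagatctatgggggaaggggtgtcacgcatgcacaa
Nxpe4, chr9:48361791-48362090, plus strand: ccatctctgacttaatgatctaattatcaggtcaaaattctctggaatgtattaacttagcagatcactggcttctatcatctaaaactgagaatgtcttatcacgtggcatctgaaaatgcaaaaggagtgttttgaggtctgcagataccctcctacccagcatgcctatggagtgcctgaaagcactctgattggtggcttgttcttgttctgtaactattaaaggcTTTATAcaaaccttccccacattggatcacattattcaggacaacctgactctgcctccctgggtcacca
Nxpe2, chr9:48340849-48341148, minus strand: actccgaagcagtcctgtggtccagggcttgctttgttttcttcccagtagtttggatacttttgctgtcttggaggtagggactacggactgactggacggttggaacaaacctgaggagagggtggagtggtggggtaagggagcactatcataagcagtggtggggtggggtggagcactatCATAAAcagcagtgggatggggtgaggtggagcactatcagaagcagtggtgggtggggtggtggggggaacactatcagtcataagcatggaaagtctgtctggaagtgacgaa
Cma1, chr14:55944626-55944925, minus strand: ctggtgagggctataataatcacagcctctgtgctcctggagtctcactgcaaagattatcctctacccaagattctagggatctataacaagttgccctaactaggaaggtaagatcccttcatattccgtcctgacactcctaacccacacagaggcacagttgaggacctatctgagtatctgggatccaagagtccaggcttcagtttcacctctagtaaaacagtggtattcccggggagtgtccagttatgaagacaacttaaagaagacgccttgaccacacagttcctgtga
The motifs were CATAAA for CDX factors, CAATAAA for posterior HOX factors, CTTTGAT for TCF/LEF factors, TATAAA for a TATA box and GGGCGG for a GC box. None of these motifs contains another. The Nxpe2 window held 1 CATAAA, at bases 186 to 191, and 11.8% of the 32851 promoters in the table hold that motif on either strand. The Nxpe4 window held 1 TATA box on the other strand, printed as TTTATA at bases 231 to 236, against 13.6% of all promoters. The Lpo and Cma1 windows matched none of the 5 motifs. CAATAAA is in 4.60%, CTTTGAT in 3.73% and GGGCGG in 35.7% of all promoters, and none of the 4 windows held them. A match is a run of letters only. In GENCODE M21, 1 of 3 Lpo, 1 of 4 Nxpe4, 1 of 5 Nxpe2 and 2 of 2 Cma1 transcripts start inside the window. The other transcripts start elsewhere, and which start was used in these cells was not tested.

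In GENCODE M21, on GRCm38, Lpo (ENSMUSG00000009356.13) lies on chromosome 11 from 87806428 to 87828289 on the minus strand. Ccn3 (ENSMUSG00000037362.9) lies on chromosome 15 from 54745702 to 54754039 on the plus strand. Nxpe4 (ENSMUSG00000044229.10) spans chromosome 9 from 48162023 to 48400025 on the plus strand, and Nxpe2 (ENSMUSG00000032028.16) lies inside that span on the minus strand, from 48318006 to 48353454. The exons of Nxpe4 and Nxpe2 share 0 bases. Strand setting is not stated, so transcripts of one that run into exons of the other cannot be told apart from it. Cma1 (ENSMUSG00000022225.8) lies on chromosome 14 from 55941451 to 55944675 on the minus strand. The values of each gene are the sum over its exons, which merge to 14 in Lpo, 5 in Ccn3, 12 in Nxpe4, 8 in Nxpe2 and 5 in Cma1.

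The libraries held 86621513 to 106673547 counts, at which 3 counts make 0.0232 to 0.0411 counts per 1000000 counts (CPM). Levels are given in CPM on library sizes scaled by the deposited TMM factors. Epithelial markers summed to 12170 to 26020 CPM in GFP-high colon, 17360 to 27650 CPM in GFP-negative colon and 14910 to 30760 CPM in small intestinal libraries, with Cldn3 the only 1 of the 9 markers without a count. Paneth cell markers, which belong to small intestinal crypts, summed to 6.66 to 64.6 CPM in GFP-high colon, 9.99 to 118 CPM in GFP-negative colon and 12770 to 20810 CPM in small intestine. Leukocyte markers ranged from 1.55 to 231 CPM in GFP-high colon, from 3.36 to 1698 CPM in GFP-negative colon and from 14.3 to 38.9 CPM in small intestine. Stromal markers stayed at 6.32 CPM or below in all 9 libraries.

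Lgr5 went against the labels in both colon libraries numbered replicate 2. It stood at 43.5, 0.958 and 73.0 CPM in GFP-high colon replicates 1 to 3, at 2.84, 62.1 and 6.28 CPM in GFP-negative colon replicates 1 to 3 and at 57.9, 119.7 and 208.7 CPM in small intestine. The library labelled GFP-high colon replicate 2 had the least Lgr5 of all 9, and the library labelled GFP-negative colon replicate 2 had the second most of the 6 colon libraries. Stem cell markers, Lgr5 among them, summed to 737, 139.6 and 898 CPM in GFP-high and 185, 946.7 and 94.8 CPM in GFP-negative colon replicates 1 to 3. All libraries keep the group of their label here, and results between the colon fractions are given with and without this pair.

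**Figure D1:**
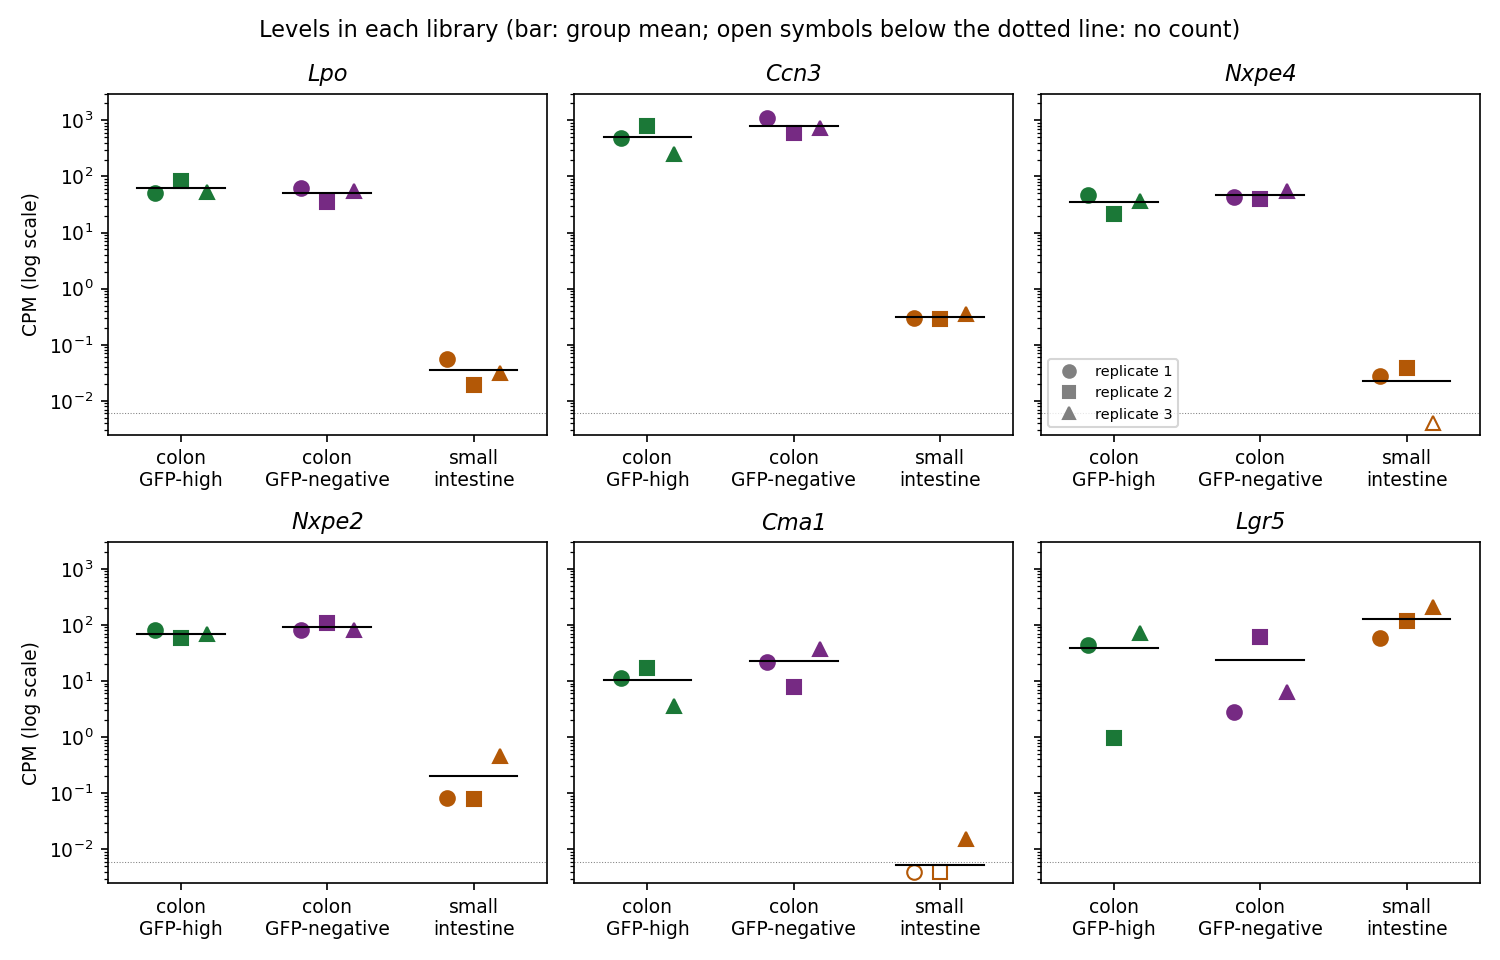
Level of each gene and of Lgr5 in each of the 9 libraries, in CPM on a log axis, with a bar at the group mean and open symbols for libraries without a count. All 6 colon libraries lie above all 3 small intestinal libraries for each of the 5 genes, whereas the 2 highest Lgr5 values are in small intestine.

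Lpo was read in every colon library and was close to the detection limit in small intestine. It had 50.1, 82.7 and 52.2 CPM in GFP-high colon, 60.9, 35.5 and 55.1 CPM in GFP-negative colon and 0.0548, 0.0195 and 0.0310 CPM in small intestine, where these levels rest on 4, 2 and 4 counts. The highest and the lowest colon value were both in the replicate 2 pair. The group means were 61.7 ± 18.2 CPM in GFP-high colon, 50.5 ± 13.3 CPM in GFP-negative colon and 0.0351 ± 0.0180 CPM in small intestine (SD, n = 3 each), a ratio of means of 1756 for GFP-high and 1438 for GFP-negative over small intestine. From its 10 pooled small intestinal counts, the pooled ratio was 1847 (95% counting interval 1005 to 3852) for GFP-high and 1507 (820 to 3143) for GFP-negative cells. In these pooled cells, fewer cells that express a gene and less of its RNA per cell cannot be told apart. Lpo had 0 of its 50-base words in common with transcripts of other genes in GENCODE M21.

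Ccn3 was high in all 6 colon libraries and was read at a low, even level in small intestine. It had 483, 796 and 252 CPM in GFP-high colon, 1111, 585.5 and 714 CPM in GFP-negative colon and 0.302, 0.293 and 0.356 CPM in small intestine. The small intestinal values rest on 22, 30 and 46 counts and lie within 1.22 times of each other, whereas the colon values spread over 4.41 times. The means were 510.3 ± 273 CPM in GFP-high colon, 804 ± 274 CPM in GFP-negative colon and 0.317 ± 0.0344 CPM in small intestine (SD, n = 3 each). The ratio of means over small intestine was 1610 for GFP-high and 2536 for GFP-negative cells. Of its 50-base words, 1.13% also occur in transcripts of 16 other genes, and the one that shares most, Vmn2r84, had at most 2 counts in a library.

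Nxpe4 was read in every colon library and hardly at all in small intestine. Its levels were 46.9, 21.4 and 35.98 CPM in GFP-high colon and 43.1, 39.9 and 55.2 CPM in GFP-negative colon. Small intestine had 0.0274, 0.0391 and 0 CPM, from 2, 4 and 0 counts. The lowest colon value was in the library labelled GFP-high replicate 2. The means were 34.8 ± 12.8 CPM in GFP-high colon, 46.1 ± 8.09 CPM in GFP-negative colon and 0.0222 ± 0.0200 CPM in small intestine (SD, n = 3 each), with ratios over small intestine of 1569 for GFP-high and 2078 for GFP-negative. From its 6 pooled small intestinal counts, the pooled ratio was 1793 (95% counting interval 824 to 4886) for GFP-high and 2338 (1074 to 6370) for GFP-negative cells.

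Nxpe2 was the steadiest of the 5 in colon and was uneven in small intestine. It had 82.4, 58.8 and 68.4 CPM in GFP-high colon and 82.4, 109 and 82.2 CPM in GFP-negative colon. In small intestine it had 0.0823, 0.0781 and 0.457 CPM, from 6, 8 and 59 counts, so replicate 3 stood apart from the other two. The means were 69.8 ± 11.9 CPM in GFP-high colon, 91.1 ± 15.3 CPM in GFP-negative colon and 0.206 ± 0.218 CPM in small intestine (SD, n = 3 each), and the ratios over small intestine were 339 for GFP-high and 443 for GFP-negative. In that library Ccn3 (46 counts) and Cma1 (its only 2 counts) were also at their small intestinal highest, whereas Nxpe4 had 0 counts and Lpo 4. Nxpe2 shares 2 of its 50-base words with Nxpe4, and Nxpe4 shares 32 with other genes, most of them (27) with the pseudogene Nxpe1-ps, which had 0 counts in all 9 libraries.

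Cma1 was the most uneven of the 5. It had 11.3, 16.9 and 3.57 CPM in GFP-high colon, 21.98, 7.75 and 37.2 CPM in GFP-negative colon and 0, 0 and 0.0155 CPM in small intestine. The small intestinal values rest on 0, 0 and 2 counts, whereas the colon libraries held 383 to 3471 counts of it. The means were 10.6 ± 6.69 CPM in GFP-high colon, 22.3 ± 14.7 CPM in GFP-negative colon and 0.00517 ± 0.00895 CPM in small intestine (SD, n = 3 each). From the 2 pooled counts, the ratio over small intestine was 1560 for GFP-high cells (95% counting interval 432 to 12880) and 3342 for GFP-negative cells (925 to 27590), intervals that cover counting error only. Cma1 shares 56 of its 50-base words (5.38%) with Gm48934, which had 19 counts over all 9 libraries.

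All 5 genes were higher in each of the 6 colon libraries than in each of the 3 small intestinal ones, an order that 9.49% of the 20610 genes tested had. Lpo, Ccn3, Nxpe4 and Cma1 were chosen for the size of this difference, and Nxpe2 as a relative. By fitted log2 fold change over small intestine, GFP-high colon cells put Lpo at rank 19 (10.79), Ccn3 at 22 (10.64), Nxpe4 at 23 (10.64), Cma1 at 29 (10.45) and Nxpe2 at 165 (8.35) of 20610 genes. GFP-negative cells put Cma1 at rank 10 (11.52), Ccn3 at 16 (11.30), Nxpe4 at 22 (11.04), Lpo at 39 (10.50) and Nxpe2 at 175 (8.73). Both comparisons share the small intestinal libraries. The median of all genes tested was 0.02 for GFP-high and -0.00131 for GFP-negative over small intestine. Small intestinal replicate 3 alone holds the 2 counts of Cma1 and most of those of Nxpe2, and without it the fitted values were 12.95 for GFP-high and 14.04 for GFP-negative in Cma1, and 9.77 and 10.16 in Nxpe2. Nxpe4 had 9.98 for GFP-high and 10.38 for GFP-negative without small intestinal replicate 3, and 11.51 and 11.92 without small intestinal replicate 2.

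Per length of transcript, in RPKM, Ccn3 stood first in both colon groups, at 178 ± 95.3 RPKM in GFP-high and 280 ± 95.6 RPKM in GFP-negative cells (SD, n = 3). Its lowest colon library, at 87.8 RPKM, lay above the highest of any other member, 34.1 RPKM for Cma1. In GFP-high cells Lpo (19.7 ± 5.82 RPKM), Nxpe2 (17.0 ± 2.90 RPKM), Cma1 (9.70 ± 6.14 RPKM) and Nxpe4 (5.88 ± 2.17 RPKM) followed, and each overlapped the next in this order. In GFP-negative cells the order was Nxpe2 (22.2 ± 3.73 RPKM), Cma1 (20.5 ± 13.5 RPKM), Lpo (16.1 ± 4.24 RPKM) and Nxpe4 (7.79 ± 1.37 RPKM). There Nxpe2 overlapped Cma1 and Cma1 overlapped Lpo, whereas all Lpo values, from 11.3 RPKM, lay above all Nxpe4 values, up to 9.34 RPKM. Between the paired family members, Nxpe2 stood above Nxpe4 in each colon library, with RPKM ratios of 2.53, 3.96 and 2.74 in GFP-high and 2.76, 3.93 and 2.15 in GFP-negative replicates 1 to 3. The 2 highest ratios were those of the replicate 2 pair.

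The colon fractions were compared to ask whether any of the 5 genes goes with the stem cell reporter. This contrast did not itself choose the members, although the GFP-high libraries also entered the differences that did. None of the 5 differed beyond the spread between libraries in edgeR's quasi-likelihood test with Benjamini-Hochberg adjustment (adjusted p = 1 for each), and 0 of the 20610 genes tested were called (0%), with 222 (1.08%) at an unadjusted p under 0.05. DESeq2 called 1 gene and limma-voom 0. The log2 fold change of GFP-high over GFP-negative was 0.29 ± 0.33 (SE) for Lpo, -0.66 ± 0.42 for Ccn3, -0.41 ± 0.51 for Nxpe4, -0.38 ± 0.55 for Nxpe2 and -1.08 ± 0.74 for Cma1. The ranges of both fractions overlapped for each of the 5, beside 2.81% of all genes with every GFP-high library higher and 1.59% with every one lower. At these standard errors the values do not show that the fractions are alike.

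Without the pair of replicate 2 libraries, Ccn3 had 483 and 252 CPM in GFP-high, against 1111 and 714 CPM in GFP-negative cells, and its log2 fold change became -1.31 ± 0.43 (SE; adjusted p = 0.504 in edgeR). Cma1 had 11.3 and 3.57 CPM in GFP-high, against 21.98 and 37.2 CPM in GFP-negative cells, and its log2 fold change became -1.995 ± 0.75 (adjusted p = 0.591 in edgeR). Lpo turned to -0.18 ± 0.36 (adjusted p = 0.95 in edgeR), from 50.1 and 52.2 CPM in GFP-high, against 60.9 and 55.1 CPM in GFP-negative cells. In these 3 genes both remaining GFP-high libraries lay below both remaining GFP-negative ones, an order that 18.7% of all genes tested had, whereas Nxpe4 (-0.25 ± 0.61) and Nxpe2 (-0.13 ± 0.73) overlapped. In this subset edgeR again called 0 genes, limma-voom 2 and DESeq2 701. DESeq2 gave adjusted p = 0.128 for Ccn3 and adjusted p = 0.135 for Cma1, the lowest of the 21 alternatives for either gene.

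**Figure D2:**
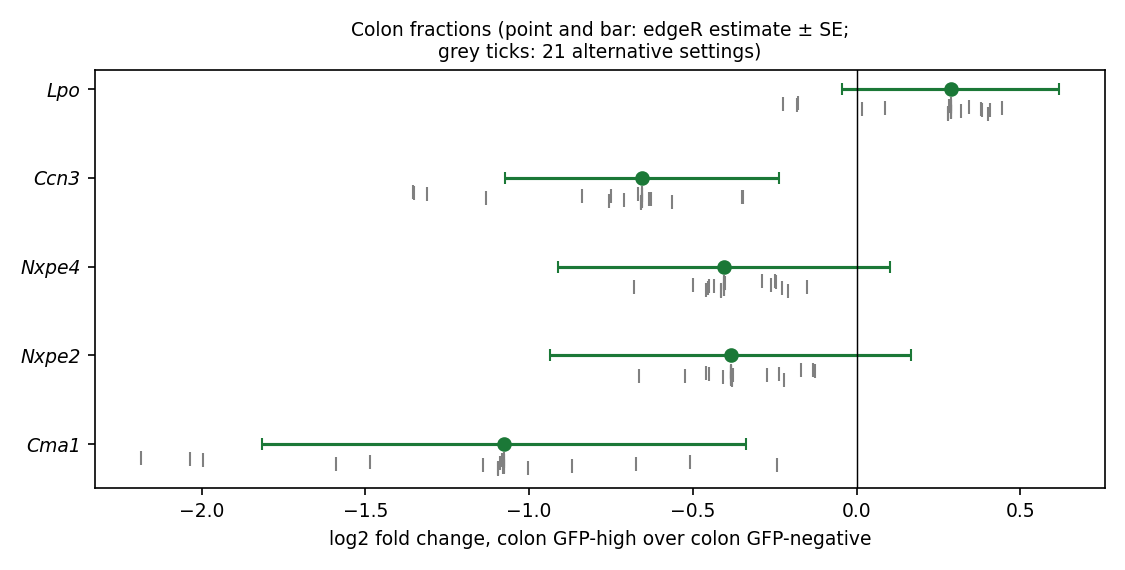
Log2 fold change of GFP-high colon over GFP-negative colon for each of the 5 genes (point and bar: edgeR estimate ± SE with all 9 libraries, grey ticks: 21 alternative settings). Ccn3, Nxpe4, Nxpe2 and Cma1 were below 0 in all settings, whereas Lpo was above 0 except in the 3 settings without the replicate 2 pair.

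Ordered by Lgr5 from most to least, the colon libraries run GFP-high replicate 3, GFP-negative replicate 2, GFP-high replicate 1, GFP-negative replicate 3, GFP-negative replicate 1 and GFP-high replicate 2. Lgr5 fell into separate high and low values with nothing between 6.28 and 43.5 CPM, so no correlation across them is given. The 3 libraries with the most Lgr5 held the 3 lowest values of Lpo (35.5 to 52.2 CPM, against 55.1 to 82.7 CPM in the other 3). They also held the 3 lowest values of Ccn3 (252 to 585.5 CPM, against 714 to 1111 CPM) and of Cma1 (3.57 to 11.3 CPM, against 16.9 to 37.2 CPM). Nxpe4 and Nxpe2 had no such order: the library with the least Lgr5 had the lowest level of both. So 3 of the 5 genes were lowest where Lgr5 was highest, an order shared by 13.1% of the other 20609 genes tested, and 0 of the 5 were highest there (12.2% of genes).

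**Figure D3:**
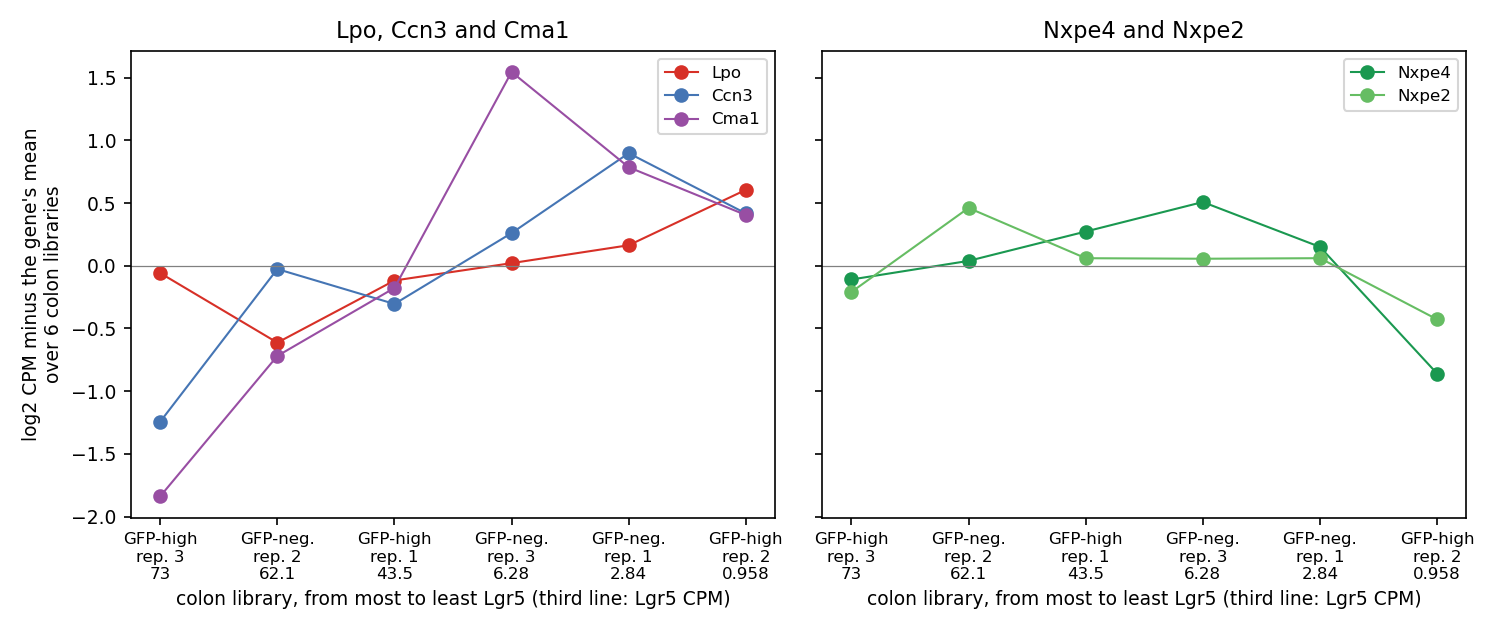
Log2 CPM of each gene relative to its own mean over the 6 colon libraries, with the libraries ordered from most to least Lgr5 (Lgr5 CPM on the third line of each label). Lpo, Ccn3 and Cma1 lie below their means in the 3 libraries with the most Lgr5, and Nxpe4 and Nxpe2 are lowest in the library with the least.

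The direction can also be read inside 2 pairs of colon libraries whose names share a tag, replicates 1 and replicates 2. In replicate 1 the GFP-high library had 43.5 CPM and the GFP-negative library 2.84 CPM of Lgr5, whereas in replicate 2 the order was the other way round. Ccn3 went against Lgr5 in both pairs, with log2 ratios of GFP-high over GFP-negative of -1.20 in replicate 1 and 0.44 in replicate 2. Cma1 did so too, with -0.96 in replicate 1 and 1.12 in replicate 2, as did Lpo, with -0.28 in replicate 1 and 1.22 in replicate 2. Nxpe4 went with Lgr5 in both, at 0.12 in replicate 1 and -0.90 in replicate 2, while Nxpe2 was level in replicate 1 and -0.89 in replicate 2. Of the other genes tested, 32.9% went against Lgr5 in both pairs and 26% went with it, so 3 of 5 and 1 of 5 are counts to be read against those shares. Marker sums moved with these libraries as well. Goblet cell markers summed to 12020, 40760 and 6981 CPM in GFP-high, against 44090, 13090 and 21670 CPM in GFP-negative replicates 1 to 3. That sum was highest in the same 3 libraries as Lpo, Ccn3 and Cma1. Clca1, Zg16, Tff3 and Fcgbp had this order, whereas Muc2, Agr2 and Spdef did not. Muc2 had 2341 CPM in GFP-high replicate 1, against 1575 CPM in GFP-high replicate 2. Agr2 had 9540 CPM in GFP-negative replicate 2, against 5803 CPM in GFP-negative replicate 3. Spdef was highest in GFP-high replicate 1, at 234 CPM. Enteroendocrine markers summed to 262.5, 11210 and 387 CPM in GFP-high colon, 3250, 114 and 3272 CPM in GFP-negative colon. Colonocyte markers summed to 2015, 25330 and 9304 CPM in GFP-high colon, 14010, 5217 and 29860 CPM in GFP-negative colon. Leukocyte markers summed to 1.55, 231 and 19.6 CPM in GFP-high colon, 552, 3.36 and 1698 CPM in GFP-negative colon. These sums were highest in the same 3 libraries too. Chga, Chgb, Tph1 and Neurod1 had that order, but Pyy and Insl5 did not. Those 2 had 172.5 and 23.6 CPM in GFP-high replicate 1, against 132 and 0 CPM in GFP-negative replicate 3. Car1 and Guca2a had it, but Slc26a3 did not. Car4 (523 CPM) and Aqp8 (240 CPM) were highest in GFP-high replicate 3, and Guca2b (99.9 CPM) in GFP-high replicate 1. Of the leukocyte markers, Ptprc and Itgam broke it. The part of these cell types in the levels of the 5 genes was not tested.

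Across the 6 colon libraries the SD of log2 CPM was 0.40 for Lpo, 0.73 for Ccn3, 0.47 for Nxpe4, 0.30 for Nxpe2 and 1.19 for Cma1, beside a median of 0.39 over the 10134 genes with a mean of at least 5 CPM there. Nxpe2 varied more than 31.6% of these genes, Lpo more than 51.8%, Nxpe4 more than 64.0%, Ccn3 more than 85.6% and Cma1 more than 94.6%. Among the members, Ccn3 and Cma1 ran together (Pearson's r = 0.832 over 6 libraries), as did Nxpe2 and Nxpe4 (r = 0.655), whereas Lpo and Nxpe2 ran against each other (r = -0.883). These values are descriptions over 6 libraries that share a dissociation protocol and a way of scaling.

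The genes most like each member over the 6 colon libraries, by Pearson's r of log2 CPM among those 10134 genes, were mostly not high in colon alone. For Lpo they were Snrnp25 (r = 0.995), Ccdc28b (0.976) and BC016579 (0.970), and for Ccn3 the pseudogene Ndufs5-ps (0.995), Micos10 (0.988) and Fau (0.985). For Nxpe4 they were Arpc3 (0.973), Snx8 (0.972) and Ankfy1 (0.959), for Nxpe2 Cep43 (0.940), Eif2ak3 (0.930) and Xpo6 (0.930), and for Cma1 Ifi30 (0.990), Gm15417 (0.989) and Sh3bgrl3 (0.982). Snrnp25 had 43.1 to 130 CPM in colon and 37.5 to 53.6 CPM in small intestine, and Ifi30 had 130 to 195 CPM in colon and 107 to 251 CPM in small intestine. Sh3bgrl3, at 268 to 680 CPM in colon and 101 to 198 CPM in small intestine, and Ccdc28b and BC016579 were the 3 of these 15 genes whose colon range lay wholly above that of small intestine.

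Genes of the same families and pathways show whether the colon level of a member is shared by its relatives. In small intestinal comparisons of edgeR, 3.91% of all genes were called higher and 1.72% lower in GFP-high cells, and 3.95% higher and 1.69% lower in GFP-negative cells. No gene of these lists was called between the colon fractions. With the tag in the library names as a block, each call against small intestine named in the following, Kit, Enpep, Anpep and Mme included, was lost (adjusted p from 0.157 to 0.785 in edgeR). That block left only 18 of the 20610 genes tested called in GFP-high and 0 in GFP-negative cells over small intestine. The losses are therefore not particular to these genes. GFP-negative colon replicate 3 and small intestinal replicate 1 carry tags of their own. Under this block they add nothing to the contrasts, and fewer libraries remain to estimate the spread.

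Lpo works with sources of hydrogen peroxide and with carriers of thiocyanate. Of 7 other haem peroxidases, 5 were tested and 0 called in either small intestinal comparison, with a median log2 fold change of 0.52 for GFP-high and -0.45 for GFP-negative cells. Mpo, the myeloid peroxidase, had no count in any library. Duox2, which joins a peroxidase-like domain to an oxidase that releases hydrogen peroxide, had 20.9 ± 7.43 CPM in GFP-high, 15.4 ± 2.72 CPM in GFP-negative and 12.9 ± 1.41 CPM in small intestine (SD, n = 3 each). Ptgs1, a prostaglandin synthase of the same superfamily, averaged 33.7 CPM in GFP-high, 10.5 CPM in GFP-negative and 27.5 CPM in small intestine.

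Hydrogen peroxide sources numbered 9, of which 8 were tested and 0 called in either comparison, with medians of 0.89 for GFP-high and 0.47 for GFP-negative. Nox1, the superoxide-making oxidase of colon epithelium, had 49.97, 17.0 and 74.3 CPM in GFP-high colon, 34.2, 117 and 9.82 CPM in GFP-negative colon, beside 5.83, 14.6 and 7.82 CPM in small intestine. Its colon values overlapped those of small intestine, and its 3 highest values were in the libraries with the most Lgr5, the 3 in which Lpo was lowest. Noxa1, its activator, averaged 259 CPM in GFP-high, 170 CPM in GFP-negative and 129 CPM in small intestine. Cyba, its membrane partner, averaged 224 CPM in GFP-high, 283 CPM in GFP-negative and 152 CPM in small intestine. Duoxa2, the maturation factor of Duox2, averaged 37.6 CPM in GFP-high, 23.4 CPM in GFP-negative and 29.1 CPM in small intestine.

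Among 6 genes of thiocyanate and iodide transport, all tested, 1 was higher in GFP-high and 2 were higher in GFP-negative cells than in small intestine (median log2 fold change 1.84 and 1.83). Ano1, a calcium-activated anion channel, had 15.4, 25.3 and 17.3 CPM in GFP-high colon, 41.8, 23.0 and 44.6 CPM in GFP-negative colon, beside 1.95, 1.68 and 3.17 CPM in small intestine. All 6 colon libraries lay above small intestine, with log2 fold changes of 3.09 ± 0.39 (SE; adjusted p = 0.00345, edgeR) in GFP-high and 4.01 ± 0.41 (adjusted p = 0.0014, edgeR) in GFP-negative cells. Both calls held with any of the 9 libraries left out and without the replicate 2 pair (adjusted p = 0.0112 and 0.00228 in edgeR). Slc5a8, a sodium-coupled carrier of short-chain fatty acids and iodide, had 19.5, 148.5 and 74.5 CPM in GFP-high colon, 149.9, 55.9 and 167 CPM in GFP-negative colon, beside 12.8, 1.31 and 8.64 CPM in small intestine. It was called in GFP-negative cells only just, at 4.04 ± 0.98 (adjusted p = 0.0476, edgeR), and had 3.42 ± 0.95 (adjusted p = 0.0777) in GFP-high cells. The difference between these fold changes is the contrast of the fractions (-0.62 ± 0.87, adjusted p = 1 in edgeR). Its call was lost on leaving out any single library but GFP-high colon replicate 1, with adjusted p between 0.0503 and 0.161. Cftr and Slc26a3, anion channel and exchanger, had 46.4 and 48.4 CPM in GFP-high colon, 40.3 and 61.9 CPM in GFP-negative colon, beside 50.6 and 62.0 CPM in small intestine.

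The enzymes that remove hydrogen peroxide were abundant in all groups. Of 11 tested, 0 were higher and 1 was lower in either colon group than in small intestine (median 0.08 and 0.20). Gpx2, the gastrointestinal glutathione peroxidase, averaged 4361 ± 1341 CPM in GFP-high, 3935 ± 1860 CPM in GFP-negative and 2125 ± 759 CPM in small intestine (SD, n = 3 each). Prdx1 averaged 2637, 2707 and 2488 CPM and Prdx6 1460, 1906 and 1330 CPM in GFP-high, GFP-negative and small intestine. The lower gene was Cat, catalase, named after its values were seen, with 115 CPM in GFP-high, 121 CPM in GFP-negative and 299 CPM in small intestine. Its log2 fold changes were -1.38 ± 0.28 (SE; adjusted p = 0.026, edgeR) and -1.31 ± 0.28 (adjusted p = 0.0308). The first was lost without GFP-high replicate 1 or 2, GFP-negative replicate 1 or small intestinal replicate 1 or 3 (adjusted p from 0.062 to 0.113), and the second without any library but small intestinal replicate 2 (from 0.0507 to 0.129). Both were lost without the replicate 2 pair (0.151 and 0.0905).

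No other CCN gene was called. Of the 5 other CCN genes, 2 were tested and 0 called (median 0.18 for GFP-high and 1.03 for GFP-negative over small intestine). Ccn1 had 13.2, 4.96 and 8.59 CPM in GFP-high colon, 5.95, 7.20 and 4.86 CPM in GFP-negative colon, beside 6.24, 14.1 and 42.0 CPM in small intestine. Ccn2 had no count in colon, Ccn4 none in any library, and Ccn5 and Ccn6 averaged at most 0.347 CPM in a group.

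Of 9 described CCN3 partners, 8 were tested (median -0.03 for GFP-high and 0.17 for GFP-negative over small intestine). Gja1, connexin 43, was higher in both colon groups, with 4.41, 1.68 and 6.18 CPM in GFP-high colon, 5.34, 4.69 and 2.44 CPM in GFP-negative colon, beside 0.137, 0.0391 and 0 CPM in small intestine. Its log2 fold changes were 6.17 ± 1.26 (SE; adjusted p = 0.0255, edgeR) and 6.19 ± 1.26 (adjusted p = 0.024). In GFP-high cells the call was lost (adjusted p in parentheses) without GFP-high replicate 1 (0.0599) or 3 (0.0721), GFP-negative replicate 1 (0.0579), small intestinal replicate 2 (0.0935) or the replicate 2 pair (0.0555). In GFP-negative cells it was lost without GFP-negative replicate 1 (0.0792) or 2 (0.0505) or small intestinal replicate 2 (0.094). Fbln1, fibulin 1, had 24.2, 6.23 and 23.4 CPM in GFP-high colon, 5.62, 23.0 and 5.36 CPM in GFP-negative colon, beside 88.0, 86.7 and 107 CPM in small intestine. All colon values lay below all small intestinal ones, and the 3 colon libraries with the most Lgr5 had the most Fbln1. It was lower in GFP-negative cells (-3.05 ± 0.70, adjusted p = 0.0389 in edgeR) and missed in GFP-high cells (-2.39 ± 0.68, adjusted p = 0.0835). Without the replicate 2 pair it was called in both, at -1.98 (adjusted p = 0.0173 in edgeR) and -4.09 (adjusted p = 0.0013). Leaving out GFP-negative replicate 2 alone also made the GFP-high call (0.0338), and the GFP-negative call was lost on leaving out any library but GFP-high or GFP-negative replicate 2 (from 0.058 to 0.145). The integrin subunits Itgb1, Itga6 and Itgb5 averaged 109, 82.1 and 21.4 CPM in GFP-high colon, 124, 80.0 and 22.8 CPM in GFP-negative colon, beside 148, 113 and 15.2 CPM in small intestine.

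Within the NXPE family, Nxpe2 and Nxpe4 were the only 2 of 5 genes that passed the filter on low counts. Nxpe3 averaged 0.0290 CPM in GFP-high, 0.345 CPM in GFP-negative and 0.129 CPM in small intestine. Nxpe5 averaged 0.0145 CPM in GFP-high, 0.422 CPM in GFP-negative and 0 CPM in small intestine, and Nxpe1-ps had no count. The family summed to 80.3 to 129 CPM in GFP-high, 126 to 149 CPM in GFP-negative and 0.215 to 0.457 CPM in small intestine, almost all of it from the 2 neighbours on chromosome 9.

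Cma1 is known from mast cells, so it was set beside 13 mast cell markers and 14 other serine proteases of its locus. Of the locus genes 5 were tested and 0 called in either small intestinal comparison (median 1.97 for GFP-high and 4.13 for GFP-negative). Mcpt1 and Mcpt2, proteases of mucosal mast cells, had 0, 17.1 and 0.0745 CPM and 0.496, 7.47 and 0 CPM in GFP-high replicates 1 to 3. In GFP-negative replicates 1 to 3 they had 6.99, 0 and 182.5 CPM and 2.55, 0 and 54.0 CPM, and in small intestine 3.04, 1.29 and 0.0775 CPM and 0.795, 0.684 and 0.0465 CPM. Mcpt4 had 0, 0.936 and 0 CPM in GFP-high and 0.0778, 0 and 0.708 CPM in GFP-negative replicates 1 to 3. In small intestine Mcpt4 had 0.603, 0.254 and 0 CPM. The genes were not read together in every library. Where Mcpt1 had 0 counts, Cma1 had 11.3 CPM (GFP-high replicate 1) and 7.75 CPM (GFP-negative replicate 2), and in small intestinal replicates 1 and 2, where Mcpt1 was read, Cma1 had 0 counts. The highest Cma1, Mcpt1 and Mcpt2 were nevertheless in 1 library, GFP-negative replicate 3. Gzmb, granzyme B of cytotoxic lymphocytes, was also highest there, at 214 CPM, beside 0.633 to 29.9 CPM in GFP-high and 1.72 to 28.1 CPM in small intestinal libraries.

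The summed mast cell markers ranged from 33.4 to 71.8 CPM in GFP-high, from 44.8 to 310 CPM in GFP-negative and from 11.5 to 16.5 CPM in small intestine, and 1 of the 8 tested was called. That was Kit, a receptor also carried by secretory cells of the mouse colon crypt, at 39.4 ± 6.56 CPM in GFP-high, 44.2 ± 0.447 CPM in GFP-negative and 10.8 ± 4.97 CPM in small intestine (SD, n = 3 each). Kit gave 32.26 of the 33.4 CPM summed in GFP-high replicate 1 and 45.22 of 46.41 CPM in GFP-high replicate 3. It gave 43.98 of 44.8 CPM in GFP-negative replicate 2. In these libraries the level of the sum above small intestine therefore rests almost wholly on Kit. Its part was smaller in GFP-high replicate 2 (40.57 of 71.8 CPM) and in GFP-negative replicates 1 (44.66 of 58.26 CPM) and 3 (43.82 of 310 CPM). Kit was higher in GFP-high (1.87 ± 0.34, adjusted p = 0.0159 in edgeR) and GFP-negative cells (2.03 ± 0.34, adjusted p = 0.0109). The first call was lost (adjusted p in parentheses) without GFP-high replicate 2 (0.0539), small intestinal replicate 2 (0.0575) or the replicate 2 pair (0.0828), and both were lost with the library tag as a block (0.157 and 0.235). Of the other defining markers, Tpsab1 had no count in any library and Mrgprb2 none in colon. Tpsb2, a mast cell tryptase, was read in all 6 colon libraries, with 0.220, 2.46 and 0.354 CPM in GFP-high colon and 1.27, 0.299 and 7.92 CPM in GFP-negative colon, all above its 0.192, 0.117 and 0 CPM in small intestine. Hdc, the enzyme that makes histamine, was also read in every colon library, at 0.438 to 1.38 CPM in GFP-high and 0.219 to 1.44 CPM in GFP-negative, with 0 to 0.466 CPM in small intestine. Fcer1a and Ms4a2, subunits of the IgE receptor, had 0 counts in GFP-high replicates 1 and 3 and in GFP-negative replicate 2, the 3 colon libraries with the least Cma1 (383 to 1182 counts), in which Tpsb2 and Hdc were read. Cpa3, mast cell carboxypeptidase, was at 0 to 0.719 CPM in GFP-high, 0 to 11.6 CPM in GFP-negative and 0.0155 to 0.312 CPM in small intestine. Gata2 was at 0 to 0.762 CPM in GFP-high, 0.207 to 1.23 CPM in GFP-negative and 0.0586 to 0.356 CPM in small intestine. Il1rl1 had at most 0.270 CPM in a library. The part of mast cell RNA in the Cma1 level of any library was not tested.

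**Figure D4:**
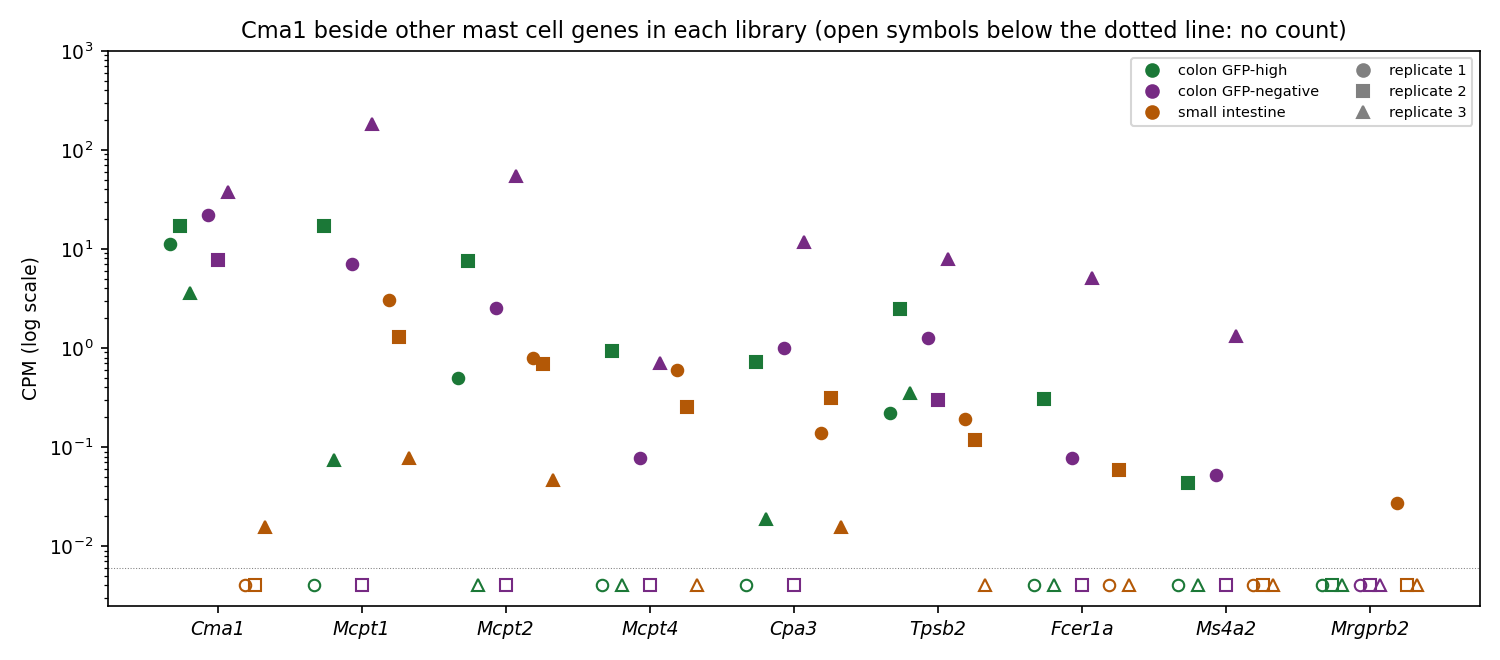
Cma1 and 8 other mast cell genes in each of the 9 libraries, in CPM on a log axis, with open symbols for libraries without a count. Cma1 was read in all 6 colon libraries, including those in which Mcpt1, Cpa3, Fcer1a and Ms4a2 had no count, and GFP-negative replicate 3 was highest for most of these genes.

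Human chymase is known for making angiotensin II, so mouse Cma1 was set beside genes of angiotensin precursors, peptidases and receptors. Of 9 such genes, 7 were tested, 0 were called higher and 3, all of them peptidases, lower in either colon group than in small intestine (median log2 fold change -4.94 for GFP-high and -4.79 for GFP-negative). Enpep, aminopeptidase A, had 0.134, 0.610 and 0.577 CPM in GFP-high colon, 0.415, 0.279 and 1.01 CPM in GFP-negative colon, beside 505, 9.08 and 152 CPM in small intestine (log2 fold changes -8.98 ± 1.54, adjusted p = 0.0118, and -8.61 ± 1.51, adjusted p = 0.0126, edgeR). Anpep, aminopeptidase N, had 0.515, 1.92 and 0.558 CPM in GFP-high colon, 1.04, 2.44 and 1.06 CPM in GFP-negative colon, beside 527, 11.2 and 183 CPM in small intestine (-7.92 ± 1.41, adjusted p = 0.014, and -7.31 ± 1.37, adjusted p = 0.0167, edgeR). Mme, neprilysin, had 0, 0.327 and 0.577 CPM in GFP-high colon, 0.389, 0.578 and 0.129 CPM in GFP-negative colon, beside 153, 12.1 and 77.0 CPM in small intestine (-8.06 ± 1.55, adjusted p = 0.02, and -7.78 ± 1.53, adjusted p = 0.0211, edgeR). In these 3 genes small intestinal replicate 2 was far below the other two.

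These calls of 3 genes depend on single libraries, with the adjusted p of edgeR in parentheses, and all were lost with the library tag as a block (0.165 to 0.43). For GFP-high, Enpep was lost without GFP-high replicate 2 (0.0529) or 3 (0.0549), Anpep without GFP-high replicate 1 (0.0627) or 3 (0.065), and Mme without GFP-high replicate 2 (0.0872) or 3 (0.0584) or small intestinal replicate 1 (0.0624) or 3 (0.0597). For GFP-negative, Enpep was lost without GFP-negative replicate 1 (0.0737), Anpep without GFP-negative replicate 1 (0.089) or 3 (0.0602), and Mme without any one of the GFP-negative replicates (0.0594 to 0.105) or small intestinal replicate 1 (0.066) or 3 (0.0622). Without the replicate 2 pair, Anpep was called in both comparisons (0.0479 and 0.0453) and Enpep and Mme in neither (0.0585 to 0.101). Ace, which makes angiotensin II, averaged 1.19 CPM in GFP-high, 3.09 CPM in GFP-negative and 36.6 CPM in small intestine, and was not called. Agt, which encodes the precursor angiotensinogen, averaged 88.9 CPM in GFP-high, 41.0 CPM in GFP-negative and 31.6 CPM in small intestine, and was not called either.

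**Figure D5:**
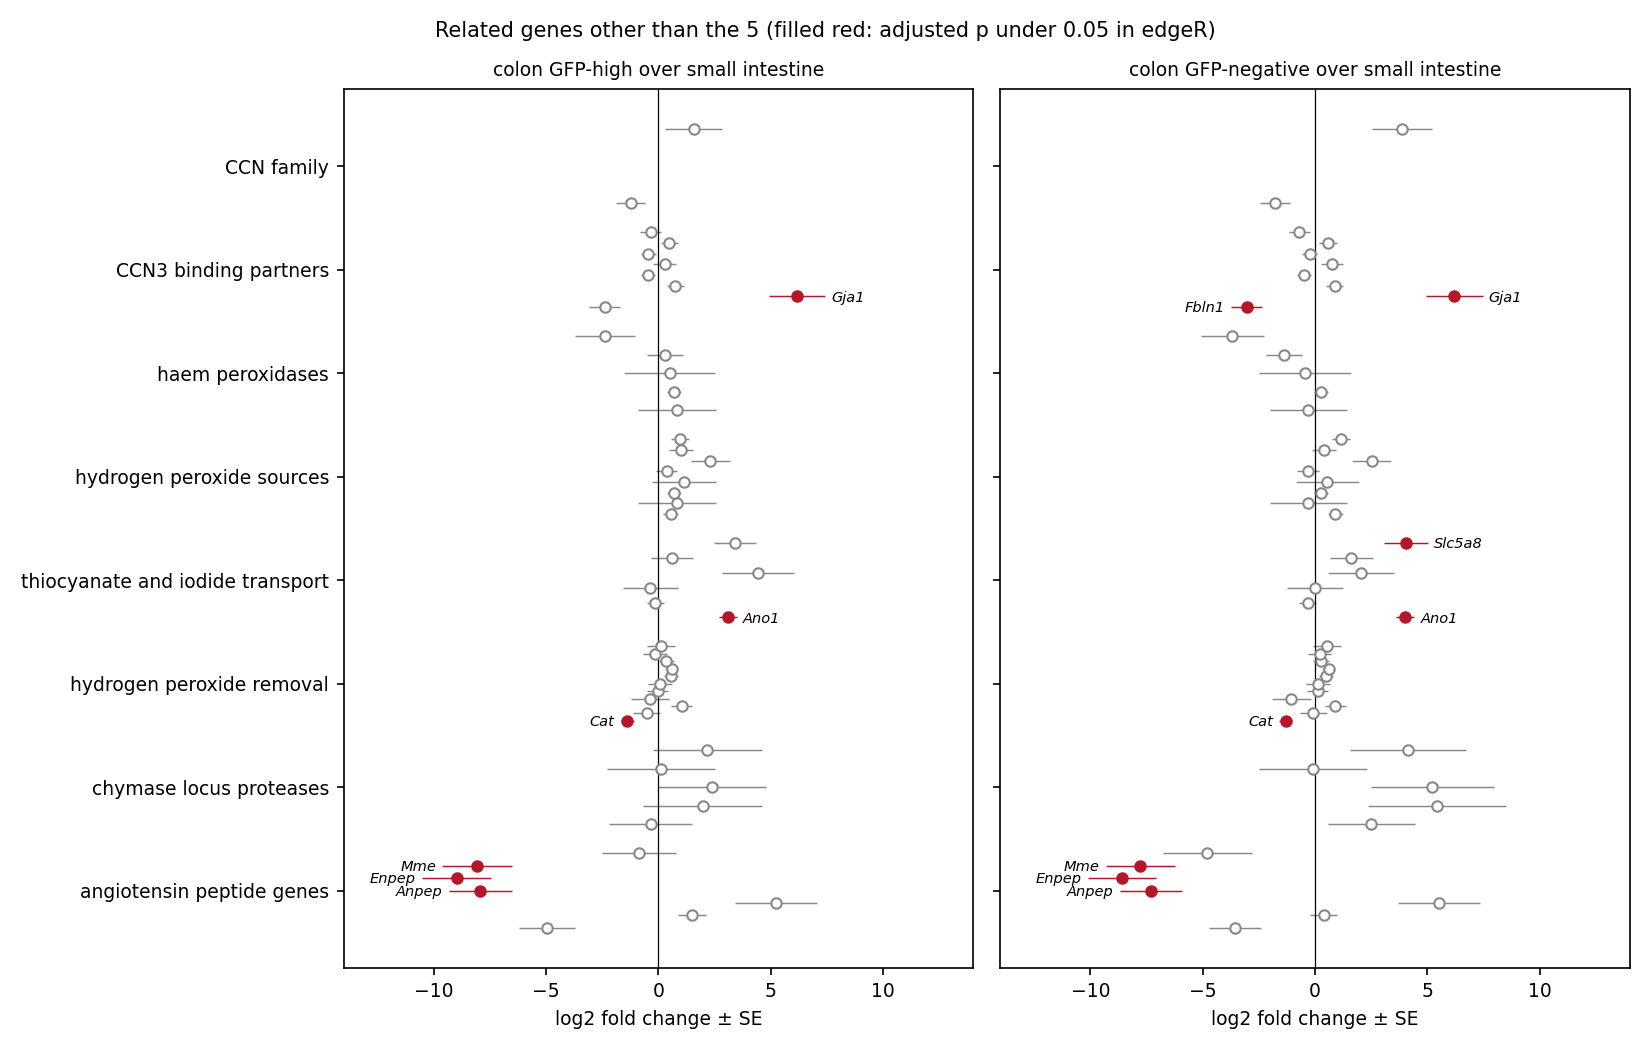
Log2 fold change ± SE of each tested related gene, without the 5 members, for GFP-high colon (left) and GFP-negative colon (right) over small intestine, with genes called by edgeR filled and named. Gja1 and Ano1 were higher and Enpep, Anpep, Mme and Cat lower in both panels, and Slc5a8 and Fbln1 were called in the GFP-negative panel alone.

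Nxpe4 and Nxpe2 are neighbours of each other and were both chosen here. Of the 24 distinct non-member genes among the 3 nearest on each side, 7 were tested and 0 were called in any of the 3 comparisons, where 5.63% of all genes were called in GFP-high and 5.64% in GFP-negative over small intestine. A count of 0 among 7 is near that share, and the other 17 neighbours had too few counts to be tested. The nearest gene to Lpo, 2015 bases away, is the peroxidase gene Mpo, with no count. Mks1, on the other side, averaged 13.6 CPM in GFP-high, 11.2 CPM in GFP-negative and 12.0 CPM in small intestine. Mal2, the nearest gene to Ccn3 with a level above 1 CPM, averaged 82.8, 105 and 74.4 CPM in GFP-high, GFP-negative and small intestine. Rexo2, beyond Nxpe4, averaged 124 CPM in GFP-high, 130 CPM in GFP-negative and 90.2 CPM in small intestine. Near Cma1, Sdr39u1 averaged 17.2 CPM in GFP-high, 15.2 CPM in GFP-negative and 19.1 CPM in small intestine, and Khnyn 9.72, 11.4 and 16.4 CPM. Cma2, the chymase gene 6305 bases from Cma1, averaged 0.0674 CPM in GFP-high, 0.00432 CPM in GFP-negative and 0 CPM in small intestine.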

How the data were processed

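Polyadenylated RNA of GFP-sorted intestinal epithelial cells was sequenced in 9 libraries. Crypts had been released by chelation and digested with TrypLE, per the labels' protocols. STAR, Subread, featureCounts and edgeR were used on genome build mm10, per the submitters' processing notes, while strand setting and annotation release are not stated. The deposited table gives, per the file headers, a raw read count per gene and library, log2 values of CPM, RPKM and TPM, and a scaling ratio (TMM factor, 0.805 to 1.21). The gene length and the library size in it are, per the file headers, in bases and counts and are listed here as a score. The log2 CPM and log2 RPKM were recomputed from the deposited counts to within rounding. The main tests used the counts with the deposited TMM factors, and none of the log2 values.

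CPM were computed here as count over library size times TMM factor. Genes were tested in R 4.3.3 with edgeR 4.0.16 (glmQLFit and glmQLFTest, two-sided) in a single fit of all 9 libraries, after filterByExpr by group (20610 genes tested, 57629 not), with Benjamini-Hochberg adjustment and calls at an adjusted p under 0.05. All 5 members passed that filter. The 21 alternatives included DESeq2 1.42.0, limma-voom (limma 3.58.1), other scalings and filters, blocks and left-out libraries. DESeq2 and limma-voom without the colon replicate 2 pair were added after the data were seen. In simulated colon fractions (19684 genes), 37% of 4-fold and 90% of 16-fold changes were recovered, with 7 unchanged genes called. Library totals were 86621513 to 106673547 counts, and the common biological coefficient of variation was 0.726.

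The members and gene lists were chosen with earlier results of these data known. Genes named besides the 5 were the 4 highest of each related list, list genes called past a log2 fold change of 3, neighbours reaching 1 CPM and the 3 most similar genes per member. Library names were matched to titles by their labels, all replicates differed far beyond counting noise (chi-square per gene of 423.5 or more), and 51498 gene IDs (65.8%) were found in GENCODE M21, whose coordinates are printed. The search for shared words used 50 bases. No protein sequence was used here, and 2 genes of the related lists are not reported here and enter none of their counts.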

Additional observations from a re-analysis of the deposited data

How the results depend on the processing

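In all 21 alternatives the 5 genes stayed above small intestine. Lpo, Ccn3, Nxpe4 and Cma1 were chosen for that difference in these counts, so this is a description and not separate support. None of the 5 was called between the colon fractions in any alternative. Only Lpo changed sign there, without the colon replicate 2 pair (-0.18 by edgeR, -0.23 by DESeq2, -0.18 by limma-voom). Leaving out each library in turn gave colon fraction values of 0.0177 to 0.44 for Lpo, -1.13 to -0.35 for Ccn3, -0.68 to -0.15 for Nxpe4, -0.52 to -0.24 for Nxpe2 and -1.59 to -0.51 for Cma1. Over small intestine it gave 7.96 to 9.77 (GFP-high) and 8.35 to 10.16 (GFP-negative) for Nxpe2, 9.94 to 12.95 and 10.98 to 14.04 for Cma1, and 9.98 to 11.51 and 10.38 to 11.92 for Nxpe4. The genes called between the fractions numbered 0 in edgeR, 1 in DESeq2 and, without the pair, 0 in edgeR, 2 in limma-voom and 701 in DESeq2. For GFP-high over small intestine 1161 genes were called, with 2714 in DESeq2, 566 to 1334 on leaving out a library and, without the pair, 504 by edgeR, 605 by limma-voom and 1881 by DESeq2. For GFP-negative over small intestine 1163 were called, with 2871 in DESeq2, 530 to 1074 on leaving out a library and 3148 in DESeq2 without the pair. The cause was not tested.

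The deviations of colon libraries with the same replicate number, from the means of their labelled groups, correlated at -0.09, -0.60 and -0.25 for replicates 1 to 3. Lgr5 goes against the labels in replicate 2, so these values cannot tell whether the number pairs the fractions. With the number as a block, 508 genes were called for GFP-high and 528 for GFP-negative over small intestine. Of the related genes named, Ano1 (adjusted p = 0.0221 and 0.0119 in edgeR) and Kit (0.034 and 0.0258) were called under that block, and Gja1, Fbln1, Slc5a8, Cat, Enpep, Anpep and Mme were not (their calls moved to 0.0679 to 0.143). With the tag in the library names as a block, the counts were 18 and 0 (2874 and 1635 genes at an unadjusted p under 0.05), and Cma1 in GFP-negative over small intestine became 9.85. Total-count scaling moved the median of all genes between the fractions to 0.13. Depth limits the small intestinal levels, which rest on 0 to 59 counts per library. The labels of the replicate 2 pair limit every statement on the fractions.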
